A study of Mus musculus with 12 samples.

Results

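The transforming growth factor beta (TGF-beta) ligands, receptors and latency proteins described here are 10 genes: *Tgfb1*, *Tgfb2*, *Tgfb3*, *Inhba*, *Ltbp1*, *Ltbp2*, *Ltbp3*, *Tgfbr1*, *Tgfbr2* and *Tgfbr3*. They were picked by gene symbol and not by a measured value, and all 10 are among the 27998 gene rows of the deposited count matrices. Each was followed across the cell types of the mouse joint, across subsets of its fibroblasts and across 12 libraries.

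TGF-beta leaves the cell bound to its own propeptide, which keeps it from its receptor, and this latent complex is tied to the extracellular matrix by latent TGF-beta binding proteins. Force from integrins, or cleavage by proteases, frees the ligand, which then joins the type II receptor TGFBR2 with the type I receptor TGFBR1 and starts signalling through Smad proteins. In joints the pathway is known for its part in making and repairing matrix, in cartilage upkeep and in fibrosis, and activin A, the dimer of the *Inhba* product, belongs to the same family and is known from inflamed synovium.

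The study used C57BL/6 wild-type mice aged 8 to 10 weeks and induced arthritis with serum from K/BxN mice, whose autoantibodies inflame the joints of a recipient for a limited time. Libraries labelled rest come from mice at day 0 without serum, and the others from mice given 100 µl of serum intravenously, taken on days 7 to 9 (labelled peak), on day 15 (resolving) or on day 22 (resolved). Hind limb joint cells lacking CD45, a protein of white blood cells, were put through droplet sequencing of RNA 3′ ends, and each of the 3 libraries per label pools the joints of 3 animals, so a library is a pool and not an animal. Levels below are unique molecular identifiers (UMIs), the tags that count captured RNA molecules. They were summed over the cells of a class, cluster or other set of cells in each library. Each sum was scaled to the same total, and the result is called CPM (counts per 1e6 UMIs of that sum).

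The libraries do not group by their labels. Each carries a number from 1 to 12 at the end of its cell barcodes, and in fibroblast-like cells the most similar other library, over 11425 genes, had a number from the same run of 3 (1 to 3, 4 to 6, 7 to 9 or 10 to 12) for 11 of 12 libraries but the same label for 1 of 12, with correlations across genes, which are not independent replicates, of 0.974 to 0.988. These runs are not the deposited groups, and they were chosen with earlier results of these data known. Whether the stage labels of the deposited libraries are rightly assigned is not known, and they were used as deposited. The study reports inflammatory and matrix genes as raised at peak over rest in fibroblasts that express *Hk2*. Single genes of that result were not examined here. Suffixes 1, 5 and 9 are labelled rest, 2, 6 and 10 peak, 3, 7 and 11 resolving, and 4, 8 and 12 resolved. Among 21042 deposited cells, 0 barcode sequences were found in more than 1 library. Cell types and subsets are compared within libraries below, where the labels enter only through the upper limits on UMIs per cell, which the study sets per library and which differ between labels. Stages are compared by the labels as deposited.

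After quality limits 20060 of 21042 cells remained. The libraries labelled rest held 10503650, 12341592 and 7468914 UMIs, and those labelled peak 8286317, 12262078 and 14553711. Those labelled resolving held 7665985, 10726400 and 8538348, and those labelled resolved 9172935, 16566202 and 8908613. Every deposited library had the same median of 5358 UMIs per cell. The totals, depths and limits given here are those of the deposited counts, and whether these had been brought to a common depth is not stated by the study.

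Clusters were named from marker genes, and the 10 members took no part in the clustering. Fibroblast-like cells (9693 cells, 48.3%) carried 6 or 7 of 7 fibroblast markers, and the other named classes carried most of theirs, from 5 of 6 in the larger tenocyte cluster and in lymphatic endothelial cells to 7 of 7 in proliferating, immune and erythroid cells. Also, 132 cells in 1 cluster led by *Tnnc2*, *Acta1* and *Pvalb* had too few markers for a name and were left out of the comparisons. Without a class name, but compared, were 3 clusters that had fibroblast markers beside those of another class, which are called by their leading genes and referred to as clusters with markers of more than 1 class: the *C1qtnf3* and *Col8a1* clusters (fibroblast and tenocyte markers) and the *Cytl1* cluster (fibroblast and chondrocyte markers). Fibroblast markers were also detected in named clusters that are compared with the fibroblasts below, 7 and 6 of 7 in the tenocyte clusters, 7 in the proliferating cells and 5 in the osteoblasts. Some named clusters passed markers of a further class: the erythroid cluster 7 of 7 proliferation markers, the chondrocytes 4 osteoblast markers and the lymphatic endothelial cells 5 vascular endothelial markers. Although cells with CD45 had been sorted out, 112 cells formed an immune cluster with *Ptprc*, the gene of CD45, among its markers.

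The members were more often lower than higher outside the fibroblasts, apart from *Tgfb1*, which was never called lower, and *Tgfb3*, with 3 calls each way. Each of 11 named classes was compared with the fibroblast-like cells of the same libraries by edgeR's quasi-likelihood test, and a gene was called when its Benjamini-Hochberg adjusted p was under 0.05 and its log2 fold change beyond 0.5 in one direction or the other. All 10 members were among the 10583 genes tested. Of 110 pairs of member and class, 13 were higher and 56 lower than in fibroblast-like cells and 41 were not called, beside 13.6% higher and 18.5% lower over all genes and classes. The share of pairs called higher is close to that of genes at large. In the 3 clusters with markers of more than 1 class, 14 of 30 pairs were called, 7 higher and 7 lower, beside 24.9% of all pairs of gene and cluster.

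**Figure D1:**
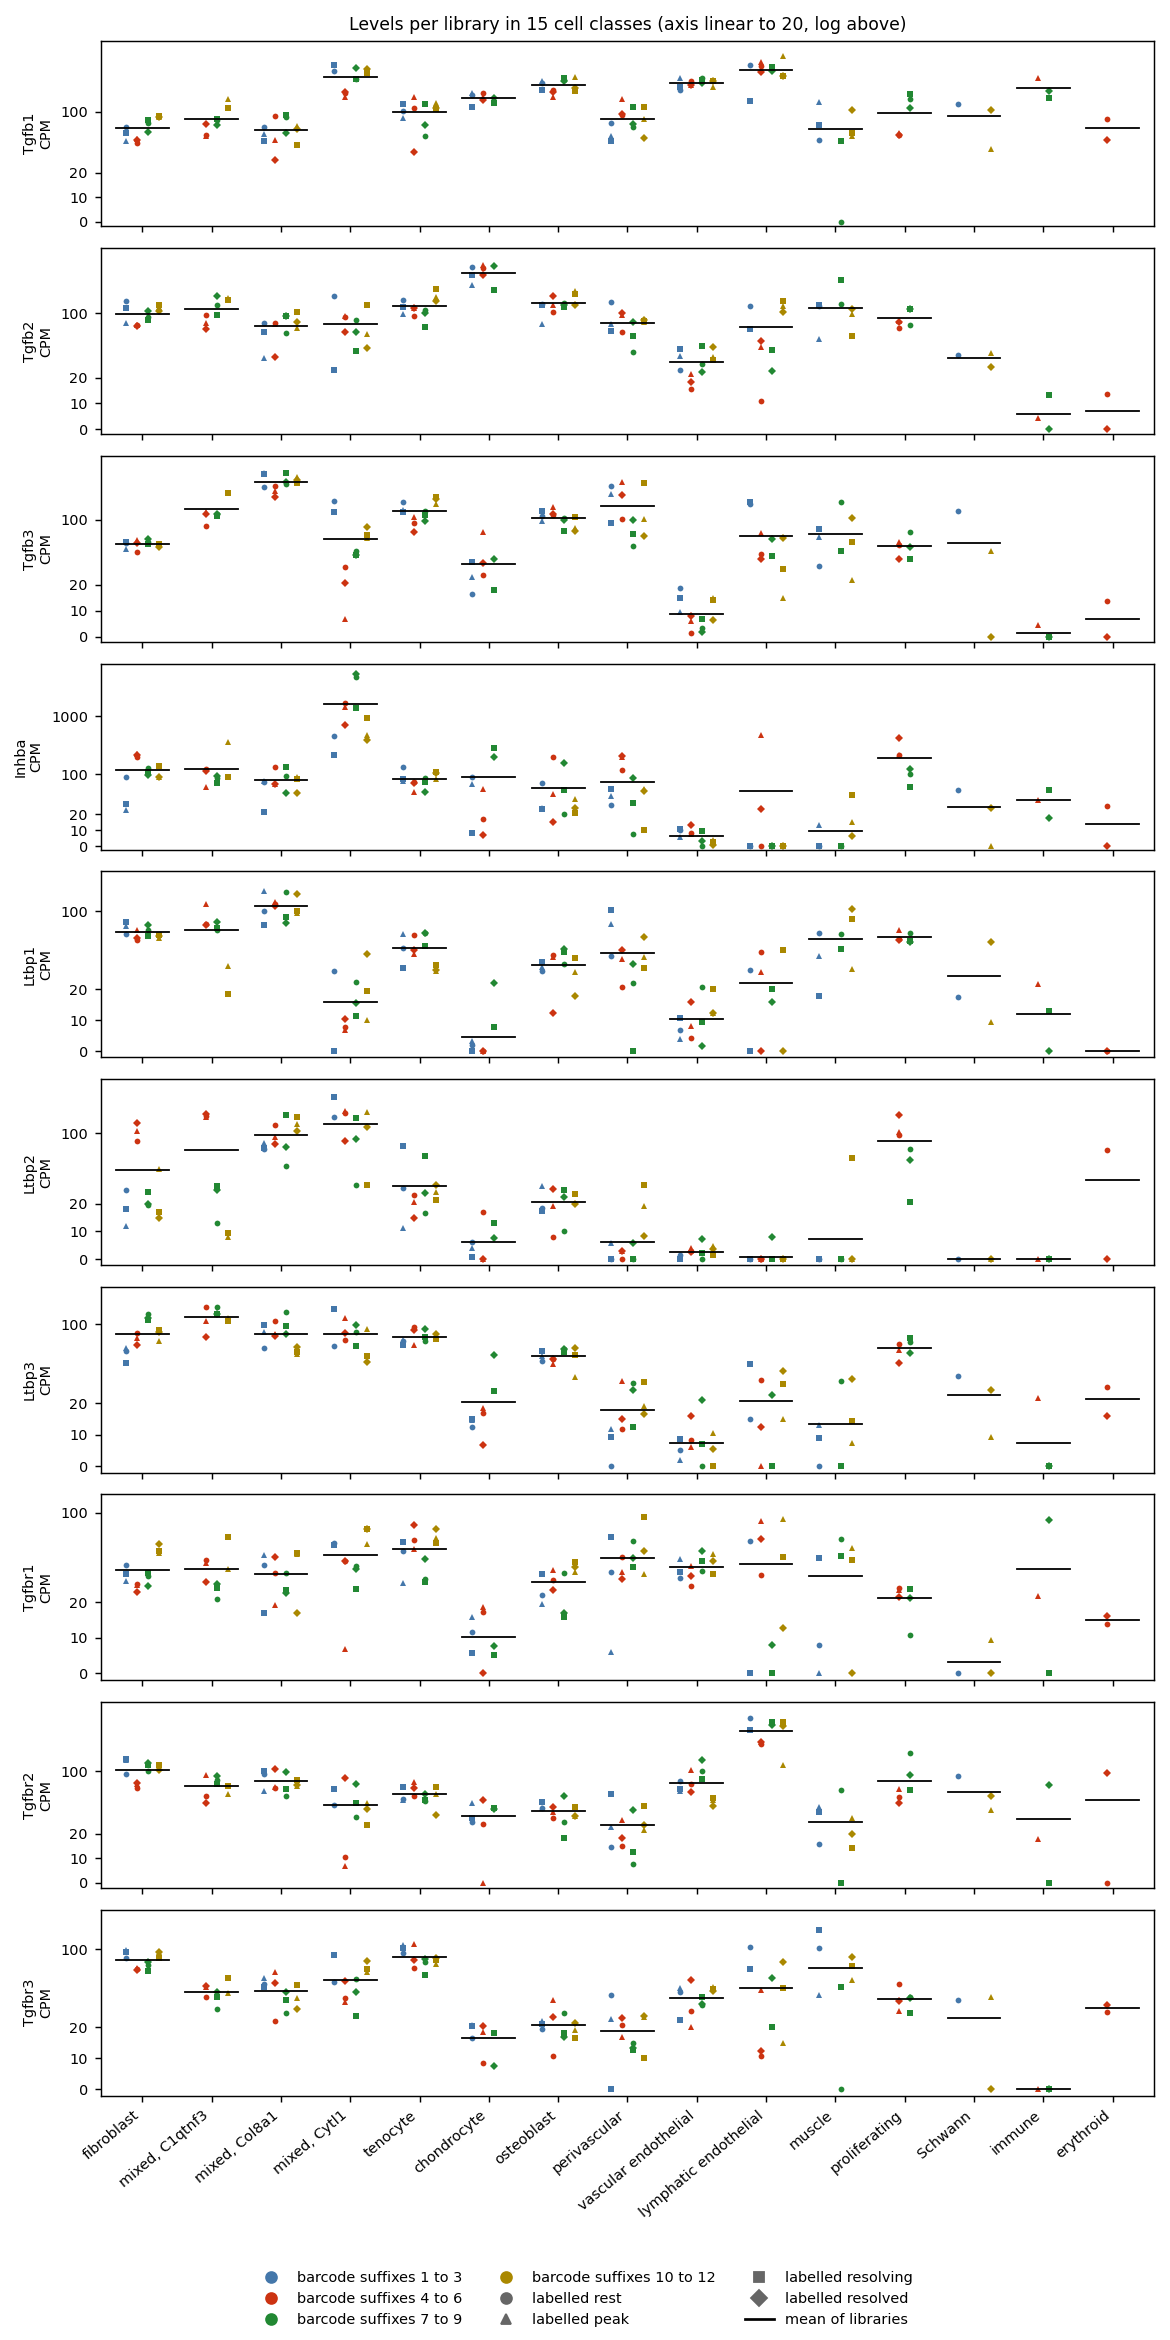
Level of each member in 15 cell classes, in CPM on an axis that is linear to 20 and logarithmic above, with 1 point per library that has at least 10 cells of the class and a bar at the mean. Colour gives the run of barcode suffixes and shape the stage label. *Inhba* reaches 5476 in the *Cytl1* cluster, *Tgfbr2* is highest in lymphatic endothelial cells, and *Ltbp3* lies at 0 to 21.4 in vascular endothelial cells.

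Among the ligands, *Tgfb1*, the form made by many cell types, was higher in endothelial, bone and cartilage cells than in fibroblasts. In vascular endothelial cells it ranged from 177 to 245 CPM with a median of 218, and in fibroblast-like cells of the same 12 libraries from 44.3 to 89.9 with a median of 63.1. The lowest endothelial value thus lay above the highest fibroblast value. The log2 fold change was 1.47 ± 0.13 (SE), with an adjusted p of 2.41e-19 and a higher level in 12 of 12 libraries. Osteoblasts, with 147 to 253 (median 199), also kept clear of the fibroblasts, by 1.54 ± 0.13 (adjusted p = 5.67e-20, higher in 12 of 12).

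*Tgfb1* was further called higher in lymphatic endothelial cells by 1.65 ± 0.17 (edgeR, adjusted p = 6.26e-15, 10 of 10 libraries) and in chondrocytes by 1.38 ± 0.17 (adjusted p = 2.05e-12, 8 of 8). In tenocytes the difference was smaller, at 0.73 ± 0.14 (adjusted p = 6.31e-06, 10 of 12), and was lost without upper limits on genes and UMIs per cell. The call in immune cells, 1.58 ± 0.29 (adjusted p = 2.8e-06, 3 of 3), was lost when the library labelled peak 2 was left out. Outside the named classes, the *Cytl1* cluster stood 2.00 ± 0.14 above the fibroblasts (adjusted p = 7.93e-25, 11 of 11).

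From the top, the mean level of *Tgfb1* ran from lymphatic endothelial cells (302 ± 80.2, SD, n = 10 libraries) through the *Cytl1* cluster, vascular endothelial cells (215 ± 21.5, n = 12), osteoblasts and immune cells to chondrocytes (144 ± 17.3, n = 8). Below these came tenocytes, proliferating cells, Schwann cells, the *C1qtnf3* cluster, perivascular cells, fibroblast-like cells (65.8 ± 17.7, n = 12), erythroid cells, muscle and the *Col8a1* cluster (62.1 ± 20.3, n = 12). The gap between chondrocytes and tenocytes was the only step between neighbours larger than the SD of both, so the other neighbours did not differ beyond their spread. Means in such orders cover the libraries with at least 10 cells of a class or cluster, which are not the same for all of them. They are plain CPM, and some classes placed above the fibroblasts had a fitted log2 fold change below 0. Examples, not called, are *Tgfb1* in Schwann cells (−0.55), *Tgfb3* in lymphatic endothelial cells (−0.39) and *Tgfbr1* in vascular endothelial cells (−0.18).

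*Tgfb2*, a form known for its part in skeletal development, was highest in chondrocytes. Its level there was 179 to 336 CPM (median 285) in 8 libraries, against 73.1 to 137 (median 97.7) in fibroblast-like cells, with no overlap. The difference on the log2 scale was 1.68 ± 0.14 (edgeR, adjusted p = 2.56e-21, higher in 8 of 8). Vascular endothelial cells, at 15.5 to 44.4 (median 29.8), lay below every fibroblast value, by −1.96 ± 0.14 (adjusted p = 2.69e-25, lower in 12 of 12). *Tgfb2* was also called lower in lymphatic endothelial cells (−1.20 ± 0.22), Schwann cells, immune cells and erythroid cells. The Schwann call was lost when cells were thinned to 2000 UMIs and the erythroid call with RLE factors and with DESeq2.

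The mean level of *Tgfb2* ran from chondrocytes (273 ± 57.4) over osteoblasts (128 ± 26.3), tenocytes, muscle, the *C1qtnf3* cluster, fibroblast-like cells (98.2 ± 21.7), proliferating and perivascular cells and the *Cytl1* and *Col8a1* clusters to lymphatic endothelial cells (70.9 ± 44.4). Schwann cells, vascular endothelial cells (29.8 ± 9.58), erythroid cells and immune cells (5.85 ± 6.65) came last. Steps wider than the SD of both neighbours lay after chondrocytes and after vascular endothelial cells.

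*Tgfb3*, known from tendon and from wound repair, was higher in tendon-like, perivascular and bone cells. The *Col8a1* cluster held 173 to 320 CPM (median 250) and fibroblast-like cells 45.4 to 61.7 (median 55.3), a narrow range that no library left. The groups did not overlap, and the log2 fold change was 2.12 ± 0.15 (edgeR, adjusted p = 3.12e-26, higher in 12 of 12). Tenocytes held 74.5 to 177 (median 123), again above all fibroblast values, with 1.31 ± 0.14 (adjusted p = 1.03e-13, 12 of 12). Perivascular cells ranged from 52.7 to 255 (median 102) and overlapped the fibroblasts in part, with 1.18 ± 0.16 (adjusted p = 3.39e-10, 11 of 12).

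*Tgfb3* was further called higher in the *C1qtnf3* cluster (1.24 ± 0.16) and in osteoblasts (0.77 ± 0.15), and lower in chondrocytes (−0.90 ± 0.25), vascular endothelial cells (−2.82 ± 0.22) and immune cells. The osteoblast call was lost when the 3 clusters with markers of more than 1 class were counted as fibroblasts. Mean levels ran from the *Col8a1* cluster (256 ± 45.9) over perivascular cells (141 ± 75.0), the *C1qtnf3* cluster, tenocytes (125 ± 31.2), osteoblasts, muscle, lymphatic endothelial cells, the *Cytl1* cluster, Schwann cells, fibroblast-like cells (54.6 ± 4.79) and proliferating cells to chondrocytes (33.3 ± 18.5), vascular endothelial cells (8.87 ± 5.67), erythroid cells and immune cells. Beyond both SDs, the *Col8a1* cluster stood apart from perivascular cells, proliferating cells from chondrocytes, and chondrocytes from vascular endothelial cells.

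*Inhba*, which encodes the beta A chain of activin A, was highest in the *Cytl1* cluster and lowest in vascular endothelial cells. In the 11 libraries with at least 10 cells of that cluster it ranged from 216 to 5476 CPM with a median of 947, and in fibroblast-like cells from 23.8 to 223 with a median of 102. The ranges touched only at their ends, where the lowest value of the cluster, 216, came from a library in which fibroblasts held 29.6. On the log2 scale the difference was 3.63 ± 0.34 (edgeR, adjusted p = 9.83e-18, higher in 11 of 11). In vascular endothelial cells 0 to 13.2 was found (median 6.84), under every fibroblast value, by −4.45 ± 0.50 (adjusted p = 2.41e-14, lower in 12 of 12).

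The level of *Inhba* in the *Cytl1* cluster varied widely between libraries. The libraries with suffixes 7, 8 and 9 held 1419, 5476 and 4893, those with 4, 5 and 6 held 714, 1682 and 1442, those with 10, 11 and 12 held 470, 947 and 392, and suffixes 1 and 3 held 449 and 216. Values of 7 to 9 overlapped those of 4 to 6 and lay above the rest.

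Counts per cell gave the same order for *Inhba*. At least 1 UMI was found in 55.1% of cells of the *Cytl1* cluster (median depth 5548 UMIs) and in 19.7% of fibroblast-like cells (5524), against 1.98% of vascular endothelial cells (3176). The last share stands in for what free RNA can give, which was not measured. With cells thinned to 2000 UMIs, which leaves out those with fewer, the shares were 39.0%, 10.2% and 1.02%.

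*Inhba* was also called lower than in fibroblasts in muscle (−3.34 ± 0.98, adjusted p = 0.00349), osteoblasts (−1.07 ± 0.34, adjusted p = 0.00752, lower in 10 of 12 libraries) and lymphatic endothelial cells (−1.93 ± 0.60, adjusted p = 0.00558, lower in 9 of 10). The osteoblast call was lost with DESeq2, and the lymphatic call, whose value ran from −9.87 to −1.11 over other settings, when cells were thinned to 2000 UMIs. Most lymphatic libraries held 0, but the library with suffix 6 held 485. The mean level was highest in the *Cytl1* cluster. Those of proliferating cells (190 ± 132, n = 6), the *C1qtnf3* cluster (n = 8) and fibroblast-like cells (119 ± 66.2, n = 12) rest on different libraries, and within libraries proliferating cells were above the fibroblasts in 3 of 6 and the *C1qtnf3* cluster in 1 of 8. Lower means ran from chondrocytes over tenocytes, the *Col8a1* cluster, perivascular cells, osteoblasts and lymphatic endothelial cells to immune, Schwann, erythroid and muscle cells and vascular endothelial cells (6.42 ± 4.18). Because the spread between libraries was wide, no step between neighbours in this order exceeded the SD of both.

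The latency proteins were lower in endothelial cells than in fibroblasts. Their genes encode matrix glycoproteins, and LTBP1 and LTBP3 are known to bind the latent complex, whereas LTBP2 does not and is known from elastic fibres. *Ltbp1* was called lower in 8 of the 11 named classes, *Ltbp2* in 7 and *Ltbp3* in 9, and *Ltbp2* was called higher in 1, the proliferating cells. Of the lower calls, 3 for each gene were lost in at least 1 other setting.

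*Ltbp1* held 1.78 to 21.1 CPM (median 10.0) in vascular endothelial cells and 54.9 to 80.4 (median 61.5) in fibroblast-like cells, without overlap. The log2 fold change was −2.87 ± 0.20 (edgeR, adjusted p = 9.2e-27, lower in 12 of 12). Chondrocytes, at 0 to 22.9 (median 1.04), lay below the fibroblasts in 8 of 8 libraries, by −4.21 ± 0.37 (adjusted p = 2.41e-19). The highest level was that of the *Col8a1* cluster, 74.8 to 152 (median 106), which overlapped the fibroblast range and was called higher by 0.64 ± 0.14 (adjusted p = 0.000121, 11 of 12), a call lost when cells were thinned to 2000 UMIs.

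Mean levels of *Ltbp1* ran from the *Col8a1* cluster (111 ± 25.9) over the *C1qtnf3* cluster, fibroblast-like cells (64.9 ± 7.94), proliferating cells, muscle, tenocytes, perivascular cells, osteoblasts (32.8 ± 9.93), Schwann cells, lymphatic endothelial cells, the *Cytl1* cluster and immune cells to vascular endothelial cells (10.5 ± 6.17) and chondrocytes. The only step beyond both SDs was the one below the *Col8a1* cluster. In erythroid cells, with 2 libraries, *Ltbp1* had 0 UMIs, which allows a level of up to 22.3 CPM.

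*Ltbp2* was lower in vascular endothelial cells and not called different in tenocytes (−0.07, higher in 6 of 12 libraries). Clustering at a lower resolution turned the tenocyte value to 1.51. Vascular endothelial cells held 0 to 7.13 CPM (median 2.49), below the fibroblast range of 12.1 to 127 (median 22.9). The difference on the log2 scale was −3.88 ± 0.42 (edgeR, adjusted p = 1.25e-14, lower in 12 of 12). The *Cytl1* cluster ranged from 30.4 to 232 (median 142) and the *Col8a1* cluster from 46.9 to 153 (median 85.7), and both overlapped the fibroblasts. Within libraries the first was higher by 1.80 ± 0.25 (adjusted p = 6.58e-10, 10 of 11) and the second by 1.38 ± 0.23 (adjusted p = 2.79e-07, 10 of 12).

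For *Ltbp2*, 4 calls rested on the settings. The muscle call was lost in 5 of 21 other settings and the immune call in 3, among them single libraries left out. In proliferating cells the log2 fold change was 0.67 ± 0.26 (edgeR, adjusted p = 0.0373, higher in 4 of 6 libraries), and the call was lost in 14 of 21 other settings. In osteoblasts it was −0.77 ± 0.27 (adjusted p = 0.0155, lower in 7 of 12), and clustering at a lower resolution turned it to 1.31. The osteoblast value was also no longer called after thinning to 2000 UMIs, with DESeq2, or without rest 2 (−0.60), peak 2 (−0.61) or resolved 1 (−0.58), the libraries with suffixes 5, 6 and 4.

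Mean levels of *Ltbp2* ran from the *Cytl1* cluster (124 ± 61.6) over the *Col8a1* cluster, proliferating cells, the *C1qtnf3* cluster, fibroblast-like cells (43.1 ± 40.0), erythroid cells, tenocytes, osteoblasts (20.9 ± 6.81), muscle, perivascular cells and chondrocytes to vascular endothelial cells (2.56 ± 2.17) and lymphatic endothelial cells. No step between neighbours exceeded the SD of both. Immune and Schwann cells held 0 UMIs, which allows up to 8.39 and 14.8 CPM.

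*Ltbp3*, which is known for its part in bone and tooth development, was lower than in fibroblasts in 9 of the 11 named classes. Fibroblast-like cells held 45.7 to 122 CPM (median 79.3) and vascular endothelial cells 0 to 21.4 (median 6.50), with no overlap. On the log2 scale the difference was −3.61 ± 0.18 (edgeR, adjusted p = 1.46e-39, lower in 12 of 12). Perivascular cells, at 0 to 31.2 (median 15.9), were also clear of the fibroblasts, by −2.29 ± 0.19 (adjusted p = 8.35e-21, lower in 12 of 12). Mean levels were highest in the *C1qtnf3* cluster (117 ± 21.0), followed by the *Col8a1* and *Cytl1* clusters, fibroblast-like cells (81.4 ± 23.3), tenocytes (76.9 ± 9.74), proliferating cells, osteoblasts (52.2 ± 7.98), Schwann, erythroid, lymphatic endothelial, chondrocyte, perivascular (17.9 ± 9.86) and muscle cells, vascular endothelial cells (7.54 ± 6.25) and immune cells. Beyond both SDs were the steps below the *C1qtnf3* cluster, below tenocytes and below osteoblasts.

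The receptor genes differed in where they peaked. *Tgfbr1*, the type I receptor that carries the signal into the cell, was called in 4 of 11 named classes, as was *Inhba*, the lowest number among the members, with 1 class higher and 3 lower. Of the lower calls, those in proliferating and Schwann cells were lost when cells were thinned to 2000 UMIs. Tenocytes held 28.1 to 79.5 CPM (median 55.2) and fibroblast-like cells 24.1 to 57.0 (median 32.6), so the ranges overlapped. The log2 fold change was 0.60 ± 0.14 (edgeR, adjusted p = 0.000184, higher in 9 of 12), and the call was lost without upper limits on genes and UMIs and at a lower clustering resolution. Chondrocytes, at 0 to 18.7 (median 9.54), lay below the fibroblast range, by −1.46 ± 0.28 (adjusted p = 2.59e-06, lower in 8 of 8).

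Mean levels of *Tgfbr1* ran from tenocytes (52.2 ± 17.0) over the *Cytl1* cluster, perivascular cells, lymphatic and vascular endothelial cells (37.9 ± 7.14), immune cells, the *C1qtnf3* cluster, fibroblast-like cells (35.6 ± 10.7), the *Col8a1* cluster, muscle and osteoblasts to proliferating cells, erythroid cells, chondrocytes (10.2 ± 6.63) and Schwann cells. Steps beyond both SDs lay between proliferating and erythroid cells and between chondrocytes and Schwann cells.

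*Tgfbr2*, the type II receptor that binds the ligand first, was highest in lymphatic endothelial cells. There it ranged from 119 to 401 CPM (median 305) in 10 libraries, and in fibroblast-like cells from 65.2 to 140 (median 108). The ranges overlapped at their ends, but within each library the lymphatic cells were higher, in 10 of 10, by 0.84 ± 0.16 (edgeR, adjusted p = 7.95e-06). That call was lost when cells were thinned to 2000 UMIs. Perivascular cells, at 7.52 to 55.6 (median 22.8), and osteoblasts, at 18.1 to 52.3 (median 37.1), lay below the fibroblast range. Their log2 fold changes were −2.29 ± 0.19 (adjusted p = 2.39e-20) and −1.63 ± 0.14 (adjusted p = 1.34e-19), each lower in 12 of 12 libraries.

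In vascular endothelial cells *Tgfbr2* held 41.2 to 135 (median 68.6) and was called lower by −0.79 ± 0.13 (edgeR, adjusted p = 4.17e-08), although 4 of 12 libraries had it higher. Mean levels ran from lymphatic endothelial cells (282 ± 90.2), the only class set off from its neighbour by more than both SDs, over fibroblast-like cells (105 ± 24.3), proliferating cells, the *Col8a1* cluster, vascular endothelial cells (74.5 ± 27.6), the *C1qtnf3* cluster, Schwann cells, tenocytes, erythroid cells and the *Cytl1* cluster to osteoblasts, chondrocytes, immune cells, muscle and perivascular cells (25.0 ± 13.7).

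*Tgfbr3* encodes betaglycan, a coreceptor that hands TGF-beta 2 to the other receptors and also binds inhibin. It had its highest mean in tenocytes, which did not differ from fibroblasts by the test (0.15 ± 0.10, edgeR, adjusted p = 0.447, higher in 8 of 12), nor did muscle (−0.36) and erythroid cells (−1.21). Osteoblasts held 10.9 to 35.3 CPM (median 20.5) and fibroblast-like cells 63.4 to 97.9 (median 80.2), with no overlap. The difference on the log2 scale was −2.12 ± 0.13 (adjusted p = 1.8e-30, lower in 12 of 12). Perivascular cells were lower by −2.19 ± 0.17 (adjusted p = 5.52e-23, 12 of 12) and vascular endothelial cells by −1.36 ± 0.11 (adjusted p = 5.78e-21, 12 of 12).

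Mean levels of *Tgfbr3* ran from tenocytes (85.1 ± 16.2) and fibroblast-like cells (80.0 ± 13.0) over muscle, the *Cytl1* cluster, lymphatic endothelial cells, the *Col8a1* and *C1qtnf3* clusters, vascular endothelial cells (37.0 ± 10.0), proliferating, erythroid and Schwann cells to osteoblasts (21.2 ± 6.10), perivascular cells and chondrocytes. In immune cells it had 0 UMIs, which allows up to 8.39 CPM, and the step from chondrocytes to immune cells was the only one beyond both SDs.

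Within the fibroblasts most members differed between clusters. The 8 fibroblast-like clusters, each set against the mean of the others on the log scale within libraries, gave 23 higher and 14 lower calls among 80 pairs by edgeR, beside 10.2% higher and 8.88% lower over all genes. The lining cluster (1234 cells) was named from *Prg4*, *Clic5*, *Tspan15*, *Htra4* and *Itga6*, as markers of the surface layer that faces the joint space. The sublining cluster (1451 cells) was named from *Cd34*, *Thy1*, *Pi16*, *Dpp4* and *Col14a1*, as markers of the layer behind it. Position itself was not measured. The other 6 go by their leading genes *Cxcl5*, *Ifi205*, *Dkk2*, *Hp*, *Hmcn2* and *Fbln7*.

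Lining and sublining cells differed in 8 of 10 members. In lining minus sublining, 3 were higher and 5 lower by edgeR, beside 13.6% and 16.5% of the 7916 genes tested. *Inhba*, *Ltbp3* and *Tgfb1* were higher in the lining, and *Tgfb2*, *Tgfb3*, *Ltbp1*, *Tgfbr2* and *Tgfbr3* in the sublining, each in 12 of 12 libraries. Against the mean of the other fibroblast-like clusters, however, *Tgfb3* was called lower in both. In the sublining it was then lower in 11 of 12 libraries. *Ltbp2* (0.23, adjusted p = 0.521) and *Tgfbr1* (0.44, adjusted p = 0.0129, below the fold threshold) were not called. Over other settings *Ltbp2* ran from 0.16 to 1.15 and *Tgfbr1* from 0.32 to 0.54. The members called higher in the lining then numbered 3 to 4, and those called lower 5.

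*Inhba* was the member that set the lining apart most. In lining cells it ranged from 102 to 617 CPM (median 298) and in sublining cells from 4.69 to 49.2 (median 13.8), so every lining value was above every sublining value. On the log2 scale the difference was 3.60 ± 0.27 (edgeR, adjusted p = 3.91e-20), and against the mean of the other 7 clusters it was 2.73 ± 0.16 (adjusted p = 1.16e-26, higher in 12 of 12). At least 1 UMI was present in 46.2% of lining cells (median depth 7854 UMIs), beside the 1.98% in vascular endothelial cells (3176), and in 25.8% and 1.02% after thinning to 2000 UMIs. The lining libraries with suffixes 4, 5 and 6 held 617, 476 and 542, above all others, and those with suffixes 2 and 3 held the least, 107 and 102.

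For the ligand *Tgfb1*, lining cells held 62.5 to 190 CPM (median 122) and sublining cells 6.79 to 86.9 (median 50.8). The ranges overlapped, but within libraries lining was higher in 12 of 12, by 1.18 ± 0.15 (edgeR, adjusted p = 9.12e-11). *Tgfb2* went the other way, with 24.6 to 72.0 (median 41.9) in lining and 68.9 to 137 (median 100.2) in sublining cells, which overlapped slightly, and a log2 fold change of −1.35 ± 0.14 (adjusted p = 3.67e-13). *Tgfb3*, at 4.51 to 29.5 (median 17.5) against 24.7 to 54.3 (median 36.4), was lower in the lining by −1.01 ± 0.15 (adjusted p = 5.65e-08).

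The latency proteins *Ltbp1* and *Ltbp3* ran in opposite directions. *Ltbp1* held 11.9 to 36.7 CPM (median 23.5) in the lining and 69.1 to 134 (median 95.8) in the sublining, without overlap, and was lower in the lining by −2.09 ± 0.13 (edgeR, adjusted p = 3.01e-24). *Ltbp3* held 63.6 to 177 (median 138) in the lining and 20.4 to 74.9 (median 34.8) in the sublining, which overlapped at the ends, and was higher in the lining by 1.66 ± 0.14 (adjusted p = 1.98e-18). Of the receptor genes, 2 were lower in the lining, *Tgfbr2* by −1.39 ± 0.12 (adjusted p = 3.57e-17) and *Tgfbr3* by −0.90 ± 0.12 (adjusted p = 7.9e-10).

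*Tgfbr2* had its highest level in the sublining cluster, 154 to 270 CPM (median 224), against 47.4 to 114 (median 86.8) in the lining. These ranges did not overlap, and the sublining stood 1.23 ± 0.09 above the mean of the other clusters (edgeR, adjusted p = 3.59e-20, higher in 12 of 12). *Tgfbr3* was highest there too, at 84.6 to 159 (median 116), by 0.55 ± 0.09 (adjusted p = 1.32e-06, 12 of 12), though this call was lost when cells were thinned to 2000 UMIs. *Tgfbr1* was called in 0 of the 8 clusters by edgeR, with log2 fold changes from −0.45 to 0.38.

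**Figure D2:**
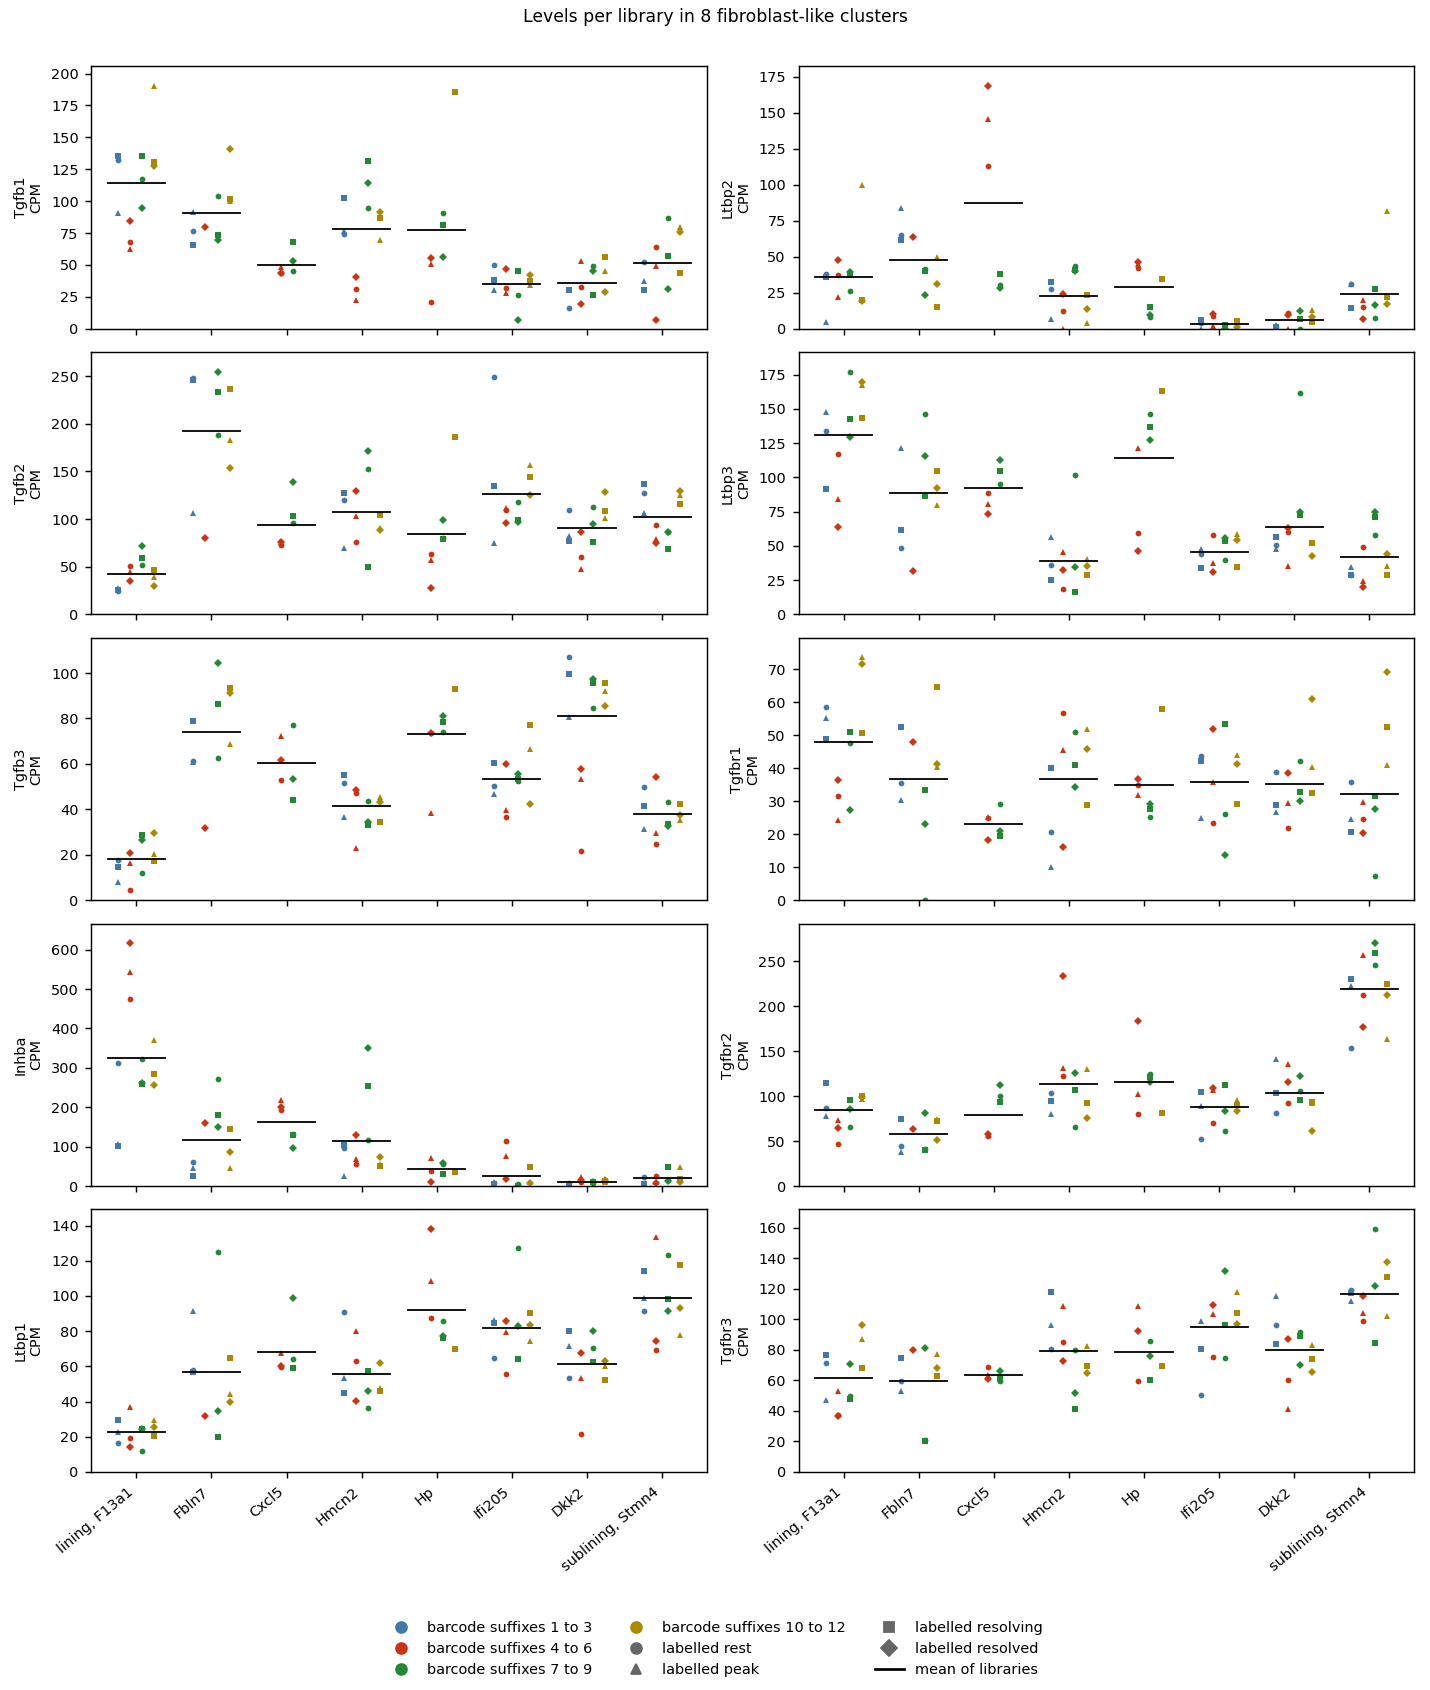
Level of each member in 8 fibroblast-like clusters, in CPM on linear axes from 0, with 1 point per library that has at least 10 cells of the cluster and a bar at the mean. Colour gives the run of barcode suffixes and shape the stage label. *Inhba* is highest in the lining cluster, at 102 to 617, and *Tgfbr2* in the sublining cluster, at 154 to 270.

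Other clusters had their own sets of members. The *Fbln7* cluster held the most *Tgfb2*, 79.7 to 255 CPM (median 210), higher than the mean of the others in 10 of 10 libraries by 1.04 ± 0.12 (edgeR, adjusted p = 1.68e-10). The *Dkk2* cluster was high in *Tgfb3*, by 0.84 ± 0.10 (adjusted p = 4.13e-11, 11 of 12), and low in *Inhba*, by −2.79 ± 0.36 (adjusted p = 8.59e-10, lower in 12 of 12). In the *Ifi205* cluster *Ltbp1* was higher by 0.69 ± 0.10 (adjusted p = 6.78e-09, 11 of 12) and *Ltbp2* lower by −3.12 ± 0.46 (adjusted p = 2.22e-08, lower in 12 of 12). *Ltbp3* was lowest in the *Hmcn2* cluster, by −1.03 ± 0.15 (adjusted p = 3.87e-08, lower in 12 of 12). *Inhba* was called higher in that cluster on the log scale, although its level exceeded the plain mean of the others in 5 of 12 libraries.

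*Ltbp2* was highest in the *Cxcl5* cluster, whose other leading genes are *Saa3* and *Chl1*. Its 6 libraries with at least 10 cells held 169, 113 and 146 CPM at suffixes 4, 5 and 6 and 38.2, 28.6 and 30.6 at suffixes 7, 8 and 9. The first 3 thus lay above the last 3 without overlap. The cluster was higher than the mean of the others in 6 of 6, by 2.45 ± 0.24 (edgeR, adjusted p = 3.63e-14), and *Inhba* was higher there by 1.23 ± 0.22 (adjusted p = 4.98e-06, 5 of 6). Of its 1776 cells, 73.8% came from suffixes 4 to 6 and 25.8% from suffixes 7 to 9.

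The order of clusters was set off beyond the SD of both neighbours at few points. *Inhba* was highest in the lining (326 ± 157, n = 12), *Tgfb2* in the *Fbln7* cluster (193 ± 62.4, n = 10) and *Tgfbr2* in the sublining (219 ± 37.9, n = 12), each apart from the next. At the low end, the lining stood apart for *Ltbp1* (22.9 ± 7.07) and *Tgfb3* (18.0 ± 7.74). For *Tgfb1*, from the lining (114 ± 35.9) through the *Fbln7*, *Hmcn2*, *Hp*, sublining and *Cxcl5* clusters to the *Dkk2* and *Ifi205* clusters (34.8 ± 11.6), the step before the *Dkk2* cluster was the only one of this size. *Ltbp2* had such a step between the *Hmcn2* and *Dkk2* clusters, and *Tgfb3* another between the *Ifi205* and *Hmcn2* clusters. *Ltbp3* (131 ± 35.7 in the lining to 39.3 ± 22.6 in the *Hmcn2* cluster), *Tgfbr1* (48.1 ± 15.9 in the lining to 23.0 ± 4.13 in the *Cxcl5* cluster) and *Tgfbr3* (117 ± 19.4 in the sublining to 59.8 ± 22.6 in the *Fbln7* cluster) had none.

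The study compared fibroblasts by whether they express *Hk2*, the gene of the glycolytic enzyme hexokinase 2, and that split gave 1 call among the members. Fibroblast-like cells with at least 1 *Hk2* UMI (4876 cells) were set against those with none (4817), in each of 12 libraries. *Inhba* was higher and 0 members were lower by edgeR, beside 4.24% of all genes higher and 2.62% lower. At an unadjusted p under 0.05 there were 9 of 10 members, beside 4009 of 10914 genes, and DESeq2 likewise gave 1 higher and 0 lower. The *Hk2*-positive cells were deeper, with 5311 to 9045 UMIs per cell and library (median 6643) against 4579 to 6467 (median 5726), and the part of depth in the result was not tested beyond the thinning given next.

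In *Hk2*-positive cells *Inhba* ranged from 33.1 to 263 CPM and in *Hk2*-negative cells from 16.2 to 180. The ranges overlapped widely, but within libraries the positive cells were higher in 11 of 12, with suffix 12 as the exception (83.9 against 96.0). The log2 fold change was 0.93 ± 0.10 (edgeR, adjusted p = 1.23e-06). With cells thinned to 2000 UMIs before the split, and those with fewer left out, it was 0.26 and not called. *Ltbp2* then turned from 0.25 to −0.63 and was called lower. Without the library block *Inhba* was 0.92 and not called. *Tgfb2* was 0.48 (adjusted p = 1.61e-05, higher in 12 of 12), just under the fold threshold, and passed it when positive meant 2 or more UMIs (0.57).

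Across libraries, 8 of the 10 members differed between the runs of barcode suffixes in fibroblast-like cells. edgeR's quasi-likelihood F test over the 4 runs, which are not the deposited groups, called 55.9% of all genes at an adjusted p under 0.05, so most genes had such a call. Since it is open whether the labels are rightly assigned, what the runs stand for is open too. The widest differences were those of *Ltbp2* and *Inhba*, and *Ltbp1* and *Tgfb3* were not called.

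*Ltbp2* held 127, 85.1 and 107 CPM in the fibroblast-like cells of suffixes 4, 5 and 6, and 27.6, 12.1 and 18.1 in those of 1, 2 and 3. Suffixes 7, 8 and 9 held 26.0, 19.9 and 19.4, and suffixes 10, 11 and 12 held 44.2, 16.9 and 14.8. The 3 libraries with suffixes 4 to 6 were thus above the other 9, which overlapped one another. Between the highest and the lowest run mean lay a log2 range of 2.53 (edgeR F test, adjusted p = 1.78e-05).

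*Inhba* held 218, 201 and 223 at suffixes 4, 5 and 6 and 87.9, 23.8 and 29.6 at suffixes 1, 2 and 3. At suffixes 7, 8 and 9 it held 107, 97.6 and 129, and at 10, 11 and 12 it held 89.6, 137 and 87.9. Again the libraries with suffixes 4 to 6 were above the other 9, and suffixes 2 and 3 were lowest. The log2 range was 2.26 (edgeR F test, adjusted p = 0.000358).

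*Ltbp3* was instead highest at suffixes 7, 8 and 9, with 108, 112 and 122 CPM, against 65.6, 83.9 and 74.7 at 4, 5 and 6. Its lowest values, 57.7, 62.0 and 45.7, were those of suffixes 1, 2 and 3, and 10, 11 and 12 held 71.1, 88.7 and 84.7. The log2 range was 1.05 (edgeR F test, adjusted p = 0.000167). *Tgfb1* and *Tgfbr1* were highest at suffixes 10 to 12, with 86.8, 89.9 and 87.7 for *Tgfb1* and 48.2, 49.7 and 57.0 for *Tgfbr1*. At suffixes 4 to 6 the same genes held 47.3, 44.3 and 48.3, and 24.1, 27.5 and 27.0. Their log2 ranges were 0.93 (adjusted p = 0.000149) and 0.99 (adjusted p = 6.4e-05).

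*Tgfbr2*, with 73.9, 65.2 and 73.2 CPM, was lowest at suffixes 4, 5 and 6, against 93.4 to 140 in the other 9 libraries. These did not overlap, and the log2 range was 0.73 (edgeR F test, adjusted p = 0.00126). *Tgfb2* (0.64, adjusted p = 0.00733) and *Tgfbr3* (0.46, adjusted p = 0.00236) were called with smaller ranges. *Ltbp1*, at 54.9 to 80.4, had a range of 0.19 (adjusted p = 0.363), and *Tgfb3*, at 45.4 to 61.7, one of 0.10 (adjusted p = 0.825).

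Marker levels in the fibroblast-like cells also differed between the runs. The summed level of the 7 fibroblast markers was 56794 to 72776 CPM at suffixes 1 to 3, 17815 to 20522 at 4 to 6, 22459 to 28276 at 7 to 9 and 45794 to 59718 at 10 to 12. A single gene, *Gsn*, led this sum at suffixes 1 to 3, with 31087, 45746 and 34491, and at 10 to 12. Over the runs in the same order, lining markers summed to 14238 to 24998, 5675 to 8346, 7830 to 11643 and 11222 to 38672, perivascular markers to 62.1 to 120, 152 to 238, 134 to 198 and 79.2 to 128, and erythroid markers to 183 to 294, 466 to 1301, 365 to 619 and 358 to 594. Proliferation markers summed to 49.0 to 75.6 at suffixes 4 to 6 and to 3.19 to 36.2 elsewhere, and tenocyte markers to 836 to 1018 at 4 to 6, 745 to 973 at 7 to 9, 284 to 489 at 10 to 12 and 155 to 314 at 1 to 3. Other lists were lower at 4 to 6 than at 1 to 3. Osteoblast markers summed to 62.1 to 69.9 against 158 to 346, and Schwann markers to 13.7 to 20.0 against 64.3 to 67.1. Chondrocyte markers summed to 830 to 1029 against 1403 to 1651, and sublining markers to 951 to 1149 against 2091 to 3062. The *Cxcl5* cluster, in which *Ltbp2* and *Inhba* were called higher, took 73.8% of its cells from suffixes 4 to 6. The *Hp* cluster took 88.2% of its cells from suffixes 7 to 9, the *Fbln7* cluster 62.0% from 10 to 12, and the sublining 8.48% from 4 to 6. The part of these in the levels of the members was not tested.

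**Figure D3:**
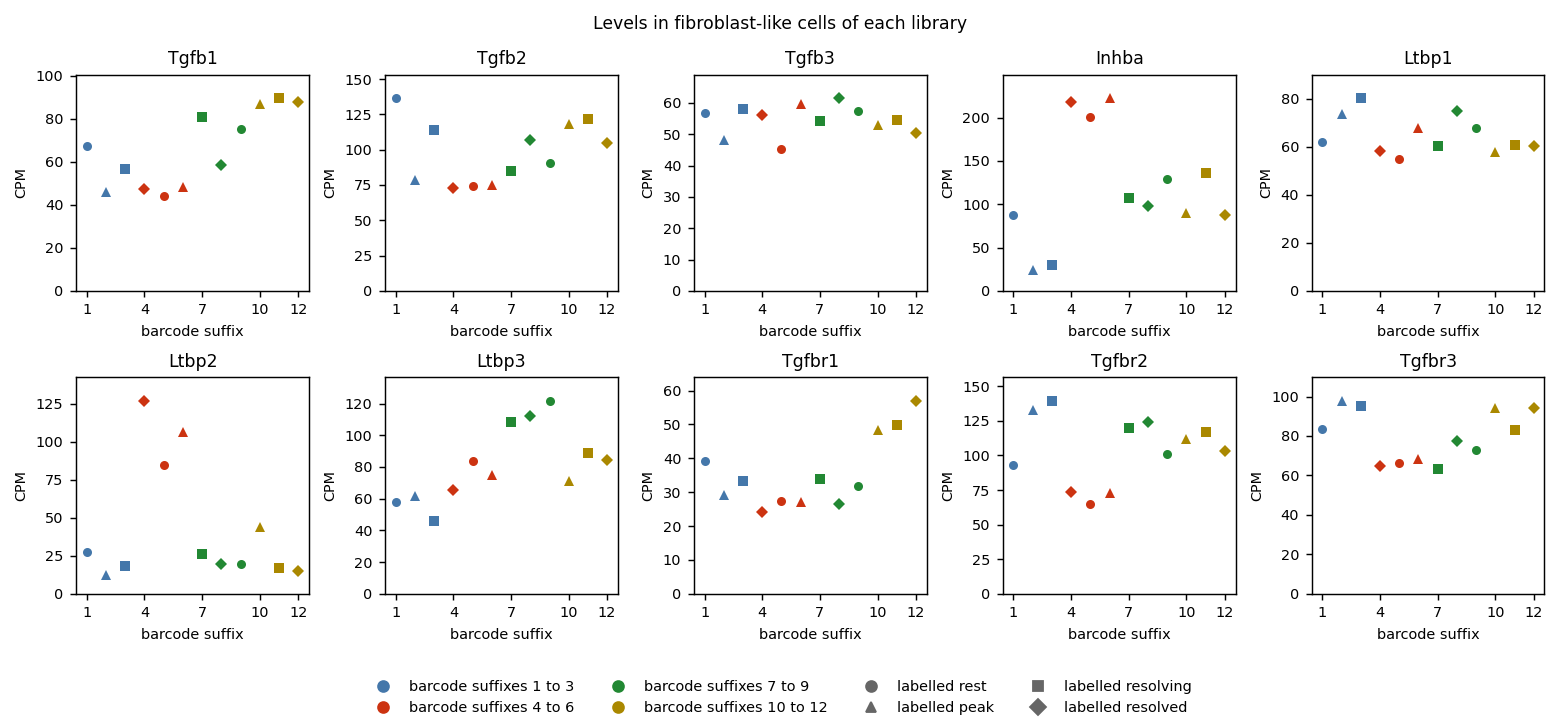
Level of each member in the fibroblast-like cells of each of 12 libraries, in CPM on linear axes from 0, by barcode suffix. Colour gives the run of suffixes and shape the stage label. *Inhba* and *Ltbp2* are highest at suffixes 4 to 6, at 201 to 223 and at 85.1 to 127, and each label has points in several runs.

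By the labels as deposited, edgeR called 0 of 30 pairs of member and later stage in fibroblast-like cells (peak, resolving and resolved, each minus rest), beside 0% of all genes. At an unadjusted p under 0.05 there were also 0 member pairs, and over all 11425 genes 81, 113 and 66 for peak, resolving and resolved. DESeq2 called 0 genes in each, with 64, 84 and 52 at an unadjusted p under 0.05. With libraries that do not group by label, these counts say nothing on how stable the members are through arthritis.

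*Inhba* in fibroblast-like cells held 87.9, 201 and 129 CPM in libraries labelled rest, 23.8, 223 and 89.6 in those labelled peak, 29.6, 107 and 137 in those labelled resolving, and 218, 97.6 and 87.9 in those labelled resolved. The groups overlapped throughout. The log2 fold changes against rest were −0.31, −0.63 and −0.06, each with an SE of 0.73. *Ltbp2* held 27.6, 85.1 and 19.4 in libraries labelled rest, 12.1, 107 and 44.2 in peak, 18.1, 26.0 and 16.9 in resolving and 127, 19.9 and 14.8 in resolved libraries, again with overlap. Its log2 fold changes against rest were 0.27, −1.18 and 0.25 for peak, resolving and resolved.

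*Tgfbr2* held 93.4, 65.2 and 101 in libraries labelled rest and 140, 120 and 117 in those labelled resolving, which did not overlap. Its log2 fold change of 0.53 ± 0.25 did not pass the test, whose background is 0% of genes. *Tgfb3* and *Ltbp1*, the members with the narrowest spread, had log2 fold changes of 0.05 to 0.10 (SE 0.14) and 0.08 to 0.14 (SE 0.16) against rest. *Tgfb1*, *Tgfb2*, *Ltbp3*, *Tgfbr1* and *Tgfbr3* lay between −0.32 (*Ltbp3* at peak) and 0.29 (*Tgfb1* in resolving libraries).

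Of the other classes, stages were tested in vascular endothelial cells and osteoblasts alone. In vascular endothelial cells edgeR called 0 of 15 tested pairs (0% of all genes), 15 more pairs, those of *Tgfb3*, *Inhba*, *Ltbp1*, *Ltbp2* and *Ltbp3*, were left out by the filter on low counts, and 1 pair, *Tgfbr1* at peak (0.55), had an unadjusted p under 0.05, beside 367 of 20799 pairs over all genes. In osteoblasts 0 of 30 pairs were called (0% of all genes), and 3 had an unadjusted p under 0.05, beside 476 of 19224 over all genes. These were *Inhba* at peak (−1.49) and resolving (−1.65) and *Ltbp2* at peak (0.77), all with an adjusted p of 1. Without the filter on low counts, *Inhba* was called lower in osteoblasts at peak (−1.46) and resolving (−1.64), beside 35 and 18 of 15905 genes called. DESeq2 was run on the stages for fibroblasts alone.

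The wider pathway was read from 5 lists with 44 symbols, 42 of them found in the matrices (not *Ltbp4*, nor *Ccn2*, which is listed as *Ctgf*). They are regulators of latency and activation, activin and inhibin genes, accessory receptors and decoys, Smads and their regulators, and reported target genes. In vascular endothelial minus fibroblast-like cells, 11 of 36 tested genes were higher and 16 lower by edgeR, beside 2847 and 2775 of all 10583 genes, with a median log2 fold change of −0.35 beside 0.01. By list, 3 were higher and 7 lower of 10 for latency and activation, 1 and 2 of 4 for activin and inhibin, 3 and 1 of 4 for accessory receptors, 2 and 2 of 11 for Smads and 2 and 4 of 7 for target genes.

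Several of these genes act on latent TGF-beta itself. *Nrros* (5.29) and *Lrrc32* (2.30), whose products hold the latent complex on the cell surface, were higher in vascular endothelial cells, as were *Eng* (4.37), the endothelial coreceptor endoglin, and the target gene *Tagln* (2.56). Lower were *Itgb8* (−5.68), a chain of an integrin that frees TGF-beta, the fibrillin genes *Fbn2* (−4.19) and *Fbn1* (−3.74), whose products anchor latency proteins, and *Fst* (−3.59), which encodes the activin antagonist follistatin. A vascular endothelial cluster of 692 cells also passed the perivascular markers *Rgs5* and *Mcam*. In perivascular cells *Tagln* stood 7.77 and *Lrrc32* 2.17 above the fibroblasts. The part of perivascular RNA in the endothelial values was not tested. In osteoblasts 5 of 36 were higher and 18 lower, beside 1563 and 1791 of all 10583 genes, with a median of −0.48 beside −0.01.

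Between lining and sublining, 12 of 35 tested pathway genes were higher and 9 lower by edgeR, beside 13.6% and 16.5% of all genes, with a median of 0.22 beside −0.00. By list, 4 were higher and 3 lower of 10 for latency and activation, 1 and 2 of 4 for activin and inhibin, 1 and 2 of 4 for accessory receptors, 1 and 1 of 10 for Smads and 5 and 1 of 7 for target genes, whose median was 1.13. *Itgb8* (4.40), *Tagln* (3.97), *Ctgf* (3.44), a matrix gene and common TGF-beta target, and *Fbn2* (3.04) were higher in the lining. *Fst* (−3.13), *Fbn1* (−2.64), the type I receptor gene *Acvrl1* (−1.78) and *Itgb3* (−1.03) were lower. Thus the lining, where *Inhba* was high, was low in *Fst*. Other clusters in which *Inhba* was called higher went both ways. Against the mean of the other clusters, *Fst* was higher in the *Cxcl5* cluster (1.25) and lower in the *Fbln7* cluster (−0.79).

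By *Hk2* status, 6 of 38 pathway genes were higher and 1 lower by edgeR, beside 4.24% and 2.62% of all genes, with a median of 0.15 beside −0.01. *Tgif1* (1.19) and *Skil* (0.95), which encode repressors of Smad signalling, and *Thbs1* (0.98), the gene of an activator of latent TGF-beta, were among the higher ones, and *Inhbb* (−0.56), the other activin chain, was lower. Over the suffix runs the F test called 30 of 38, beside 55.9% of all genes, with a median log2 range of 0.90 beside 0.64, led by *Fbn2* (5.61), *Acvr1c* (2.54) and *Tagln* (2.39). By stage label in fibroblast-like cells 0 of 38 were called in each comparison by edgeR, with medians of 0.02, −0.04 and 0.08 at peak, resolving and resolved beside 0.01, −0.00 and 0.01.

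Each member was also matched with the 3 of 10583 genes whose mean log2 level across the 15 classes was most like its own, by Pearson's r as a description over classes that share libraries. The ligand *Tgfb1* ran with *Sgk3* (0.838), *Pfkfb3* (0.792) and *Gnai2*, *Tgfb2* with *Gnl1* (0.943), *Plcd1* and *Sar1a*, and *Tgfb3* with *Foxp4*, *Zfhx3* (0.922) and *Atf5*. *Inhba* was nearest to *Csgalnact2* (0.893), *Higd1a* and *Romo1*. Among latency proteins, *Ltbp1* was nearest to *Ank2* (0.915), *Glis2* and *Pcdh7*, *Ltbp2* to *Smoc1* (0.954), *Pitx1* and *Pcsk5*, and *Ltbp3* to the matrix genes *Mmp2* (0.936) and *Lox* and to *Sema3c*. For the receptors the nearest were *Cluap1* (0.925), *Tex10* and *Usp33* for *Tgfbr1*, *Tspan5* (0.894), *Fbln5* and *Fmnl2* for *Tgfbr2*, and *Dpm1* (0.886), *Tcea1* and *Ski* for *Tgfbr3*.

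The 10 genes lie at separate places of the mouse genome (GRCm38). *Tgfb1* is at chr7:25687002-25705077 on the plus strand, *Tgfb2* at chr1:186622792-186705989 and *Tgfb3* at chr12:86056745-86079041 on the minus strand, and *Inhba* at chr13:16011851-16031621 on the plus strand. *Ltbp1* is at chr17:75005568-75392512 (plus), *Ltbp2* at chr12:84783212-84876532 (minus) and *Ltbp3* at chr19:5740904-5758532 (plus). *Tgfbr1* is at chr4:47353222-47414931 (plus), *Tgfbr2* at chr9:116084293-116175360 (minus) and *Tgfbr3* at chr5:107106570-107289629 (minus). Another annotated gene overlaps 7 of the 10, for *Ltbp1* and *Tgfbr3* on the same strand, and how counting treated reads from such overlaps is not given in the sources used here.

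Promoters from RefSeq (GRCm38.p6, 250 bases before the start and 50 from it on) are listed for 8 of the 10 members and not for *Tgfb3* and *Tgfbr3*. The promoters of *Inhba* and *Ltbp2* are shown because these members had the widest differences between libraries. Capitals mark matches on either strand to the TATA box TATAAA (in 13.6% of 32851 promoters), the GC box GGGCGG (35.7%), the CAAT box motif CCAAT (37.4%), the AP-1 motif TGACTCA (5.2%) or the SMAD-binding motif CAGAC (49.6%), and no matches overlap in these windows. The *Inhba* window, chr13:16011601-16011900 on the plus strand, holds a match to TATAAA alone. The *Ltbp2* window, chr12:84876442-84876741 on the minus strand, holds matches to the SMAD-binding motif and the GC box. Whether any match acts in these promoters was not tested.
Inhba: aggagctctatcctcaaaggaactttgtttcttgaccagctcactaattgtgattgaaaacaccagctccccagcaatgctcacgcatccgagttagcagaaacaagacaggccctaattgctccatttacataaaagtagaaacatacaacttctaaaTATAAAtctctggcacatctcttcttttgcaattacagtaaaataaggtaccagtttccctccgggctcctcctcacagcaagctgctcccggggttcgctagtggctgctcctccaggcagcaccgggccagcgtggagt
Ltbp2: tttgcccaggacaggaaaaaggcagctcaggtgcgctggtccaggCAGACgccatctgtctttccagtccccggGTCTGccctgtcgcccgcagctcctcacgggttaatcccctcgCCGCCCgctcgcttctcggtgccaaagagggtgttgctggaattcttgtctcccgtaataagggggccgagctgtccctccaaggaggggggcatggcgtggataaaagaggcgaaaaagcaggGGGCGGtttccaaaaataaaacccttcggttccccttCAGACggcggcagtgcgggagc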

How the data were processed

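The authors deposited UMI counts for each gene in each cell of 12 libraries, as whole numbers, from droplet reads aligned to mm10 by Cell Ranger. The members and gene lists were chosen with earlier results of these data known. Cells were kept by the limits the study states for detected genes and for UMIs. Scaled counts were clustered in scanpy 1.11.5 (leidenalg 0.10.2, igraph 0.11.9, Python 3.11.15) from 2000 variable genes, 30 components and 20 neighbours at Leiden resolution 1, leaving out members, pathway genes and *Hk2*. A class needed 4 of its markers, each in at least 20% of a cluster's cells and with a log2 fold change of 1 or more, and a fibroblast-like cluster 5 of 7 markers, each in at least 30%. These limits were set after the clusters were seen. No doublets were removed, since Scrublet called 56 cells (0.279%). UMIs summed per library, over at least 10 cells, were tested with edgeR 4.0.16 under R 4.3.3 (TMM factors, filterByExpr, two-sided quasi-likelihood tests), with the library as a block except for stages and suffix runs. p-values were adjusted over all genes tested by Benjamini-Hochberg. The SE is the log2 fold change over the square root of F. Libraries counted as higher or lower compare CPM. A count of 0 was given a limit of 3 UMIs, for counting error only. The models were tested on simulated data. Named are all members, the up to 4 pathway genes per direction with the largest called changes, 3 similar genes per member and *Hk2*. Alternatives were RLE factors, DESeq2 1.42.0, no filter, thinning to 2000 UMIs, no upper limits, a resolution of 0.5, removal of the top 6% of doublet scores, other blocks, 2 *Hk2* UMIs, and leaving out each library. Thinning left out cells with fewer than 2000 UMIs, so that 19506 of 20060 cells remained. Counting clusters with markers of more than 1 class as fibroblasts was added after seeing the data. The promoters of *Inhba* and *Ltbp2* were chosen after their values were seen.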

Additional observations from a re-analysis of the deposited data

How the results depend on the processing

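Over the other settings, 56 of 83 calls of members between cell types, 40 of 45 in fibroblast subsets and 8 of 8 over suffix runs were kept throughout. Counts of members called ranged from 10 to 15 higher and 46 to 61 lower for cell types, and from 20 to 24 higher and 14 to 17 lower for subsets. By *Hk2* status, the members called higher were 0 with cells thinned to 2000 UMIs and 0 without the library block, 2 with positive cells from 2 UMIs, and 1 to 2 when each library was left out in turn, against 1 as reported. The second was *Tgfb2*, without rest 3, peak 2, peak 3 or resolving 3. Thinning also gave 1 member lower in place of 0, *Ltbp2*, which reversed to −0.63 from 0.25. At Leiden resolution 0.5 *Ltbp2* reversed in osteoblasts to 1.31 (from −0.77) and in tenocytes to 1.51 (from −0.07), and *Inhba* in tenocytes to 2.03 (from −0.09). Counting clusters with markers of more than 1 class as fibroblasts, chosen after seeing the data, brought the members called over suffix runs to 9. For stages, leaving out the filter on low counts gave 20, 36 and 12 of 15707 genes at peak, resolving and resolved in vascular endothelial cells. In osteoblasts it gave 35, 18 and 24 of 15905, where 1 member was called at peak and 1 at resolving, *Inhba* (−1.46 and −1.64). With the replicate block, 1 gene was called in vascular endothelial cells at resolved. With the suffix run as a block, 1 gene was called in fibroblasts at resolved and 1 in osteoblasts at peak. In all of these the cause was not tested. Replicate numbers were not taken to pair the libraries. Deviations from the label's mean correlated with those of the like-numbered rest library at −0.583 to 0.722 across genes, which are not independent. Deviations from a mean of so few libraries depend on one another, so these values cannot decide whether the numbers pair libraries.

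Depth limits the small classes. Schwann and immune cells had 3 libraries with at least 10 cells and erythroid cells 2, so a member at 0 there was not detectable at this depth below the limits given, and the share of cells with a UMI counts capture and not expression.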
